A study of Mus musculus with 13 samples.

Results

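Vascular smooth muscle and endothelial genes were examined in mouse quadriceps muscle through 10 genes, Acta2, Myh11, Tagln and Cnn1 for smooth muscle and Pecam1, Cdh5, Kdr, Tek, Tie1 and Eng for endothelium. They were chosen by name, with earlier results of these data known. Every probe set annotated to them was taken, 14 of the 45141 probe sets on the array, against 17097 genes with a probe set of their own in all. Of these probe sets, 13 belonged to 1 gene alone and covered 9 of the 10 genes. The single probe set for Tagln is annotated to Pcsk7 as well, so its values are given but not counted as Tagln. Among the 13, 12 passed the filter for dim signals, a mean log2 signal of 4.9 over all arrays, and the second probe set of Acta2 did not.

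RNA came from 13 male C57Bl/6 mice aged 4 months, with 1 Affymetrix array per mouse. The groups were SKM-KO (n = 3), read as ablation of DOR in skeletal muscle, its presumed control C (n = 3), SKM-Tg (n = 4), read as gain of function of DOR, and its presumed control Wt (n = 3). DOR is an earlier name of Trp53inp2, a regulator of autophagy and a nuclear receptor coactivator. The labels do not pair the groups with their controls, and the promoter of the transgene and the recombinase of the ablation are not given in the sources used here. The SKM-KO arrays gave 8.58, 8.79 and 8.99 for Trp53inp2 on the log2 scale, against 11.06, 11.19 and 11.15 in C, a difference of -2.35 (limma adjusted p 0.0018). In SKM-Tg its mean and SD over 4 arrays were 11.17 and 0.11, against 11.22 and 0.23 over 3 arrays in Wt, a log2 difference of -0.06 (limma adjusted p 0.966). The arrays labelled SKM-Tg thus showed no higher signal of this probe set. Whether it reads the transgene's transcript is not given in the sources used here, so directions for SKM-Tg below rest on the label alone.

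Capillary endothelium lines the vessels that run along muscle fibres, and smooth muscle wraps the arterioles and venules that feed them. Contractile smooth muscle is known by an alpha actin, a myosin heavy chain, transgelin and calponin, whose genes are classical targets of serum response factor and its partner myocardin. Endothelial identity rests on junction proteins (Pecam1, Cdh5), the VEGF receptor Kdr, the angiopoietin receptor Tek with its relative Tie1, and Eng, a coreceptor for TGF-beta and BMP ligands. In whole muscle, fewer cells of a type and less RNA per cell cannot be told apart.

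The labelled tissue was clear from its own markers. The summed linear signal of 10 fibre genes, among them Ckm, Acta1 and Mylpf, was 56533 to 57205 in SKM-KO, 55764 to 58374 in C, 51630 to 56899 in SKM-Tg and 56436 to 58763 in Wt. Array medians lay between 4.85 and 4.94 on the log2 scale. Arrays Wt 2 and Wt 3 stood apart: their root mean square deviation from the Wt mean over all probe sets tested was 0.389 and 0.360, against 0.110 to 0.238 on the other 11 arrays. The RNA end control of Gapdh (log2 of the 3' minus the 5' probe set) was 0.226 to 0.284 in the SKM-Tg and Wt arrays, with 0.245 in Wt 2 and 0.284 in Wt 3. In the SKM-KO and C arrays it was 0.262 to 0.302. For this reason several values for SKM-Tg minus Wt are also given without Wt 2 or Wt 3.

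In SKM-KO against C, the vascular genes had small differences in both directions. Of 12 probe sets, 6 had positive and 6 negative differences, 0 passed limma's threshold (adjusted p under 0.05) and 0 had an unadjusted p under 0.05. Over all 22519 probe sets tested, 0.00888% were called and 2.58% had an unadjusted p under 0.05. The groups overlapped in every one of the 12, while 7.29% of all probe sets tested had groups without overlap. By brightest probe set, the 3 smooth muscle genes had a median log2 difference of 0.11 and the 6 endothelial genes one of -0.03, beside 0.01 over all probe sets tested. That smooth muscle median was the value of Cnn1, whose probe set was dim. The endothelial values ran from -0.13 for Kdr to 0.02 for Tek. The smooth muscle median was 0.04 without SKM-KO 2 and 0.18 without SKM-KO 3. The endothelial median was 0.012 without C 2, 0.0014 without SKM-KO 1 and -0.066 without C 1. Leaving out single arrays turned the sign of Cdh5, Tek and Tie1, which were near 0. Eng, at -0.10, turned only without C 2 (0.026).

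In the arrays labelled SKM-Tg against Wt, all 6 endothelial genes lay below 0, with a median log2 difference of -0.36 beside -0.03 over all probe sets tested, yet none passed. Of the 12 probe sets, 11 were negative, 0 passed (0% of all probe sets tested did) and 1, that of Acta2, had an unadjusted p under 0.05. That share was 2.59% over all probe sets tested, and 1.73% for lower ones. The 2 groups overlapped in each of the 12 probe sets, while 3.69% of all probe sets tested had groups without overlap. The median of the 3 smooth muscle genes, Acta2, Myh11 and Cnn1, was -0.01. This was the value of the dim Cnn1 probe set, with Acta2 at -0.54 and Myh11 at 0.08. The smooth muscle median was -0.18 without Wt 3, -0.12 without Wt 2 and 0.05 without Wt 1. Without Wt 2 the endothelial median was -0.21, the value nearest 0 among those with single arrays left out, and it reached -0.50 without SKM-Tg 3. Array quality weights, an alternative, called 7 of the 12 probe sets, all lower, beside 18.6% of all probe sets tested (12.2% lower). Those weights were 956 for Wt 1, 0.093 for Wt 2 and 0.125 for Wt 3, so that the Wt mean rested almost on Wt 1 alone.

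**Figure D1:**
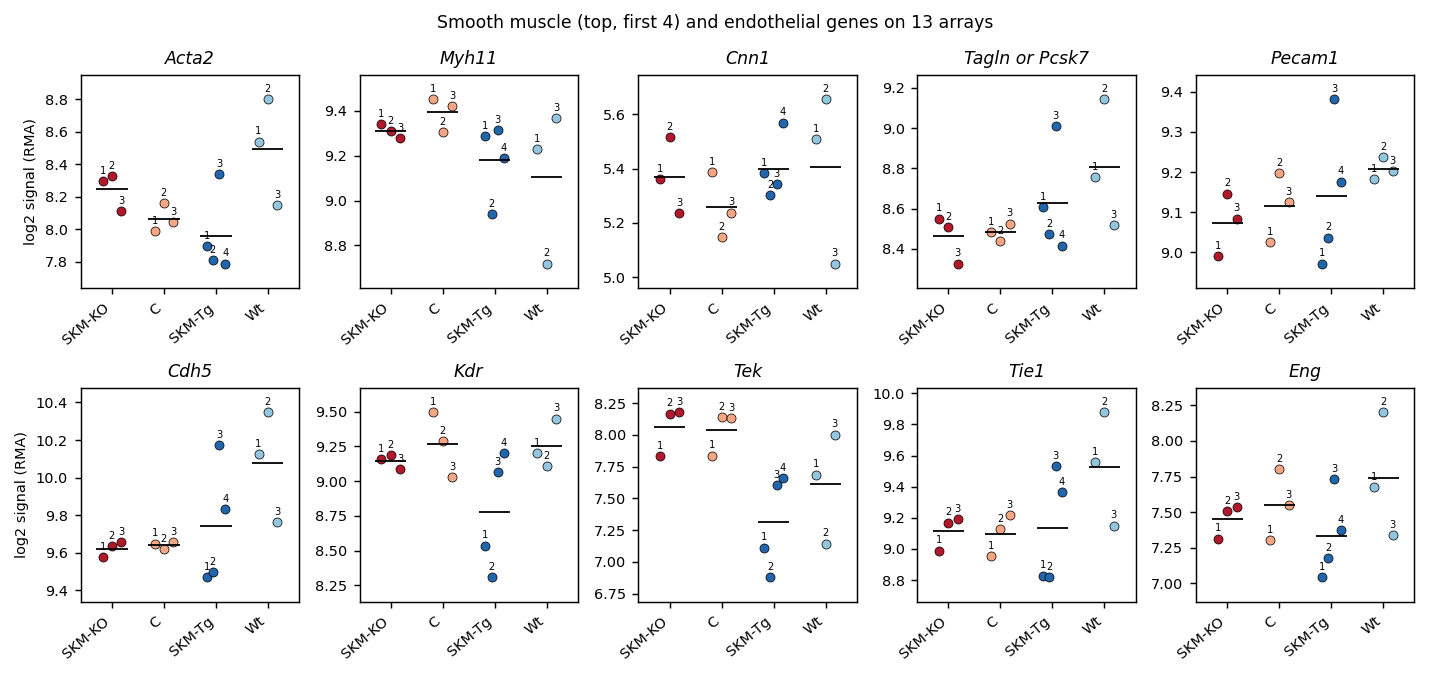
Log2 RMA signal (vertical axis, own scale per gene) of the brightest probe set of 9 genes, and of the probe set shared by Tagln and Pcsk7, in SKM-KO, C, SKM-Tg and Wt. Each point is 1 mouse with its replicate number, and the line is the group mean; the groups of each line overlap in every panel, and the points of Acta2, Cdh5, Tek and Tie1 spread more in SKM-Tg and Wt than in SKM-KO and C.

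Acta2 encodes the alpha actin of vascular smooth muscle (gene at chr19:34240336-34255585, GRCm38.p6). It had the largest log2 difference of the 9 genes, by size, in SKM-KO minus C and in SKM-Tg minus Wt. Its promoter is shown because its nearest RefSeq window holds a pair of elements resembling the CArG box, the binding element of serum response factor, each with 1 base off the pattern of CC, 6 bases of A or T, and GG. The window covers 250 bases before and 50 after its own annotated start, at chr19:34255324-34255623 on the minus strand. That start lies inside the gene span given above, not at its upstream end. The capitals mark both elements.
Acta2: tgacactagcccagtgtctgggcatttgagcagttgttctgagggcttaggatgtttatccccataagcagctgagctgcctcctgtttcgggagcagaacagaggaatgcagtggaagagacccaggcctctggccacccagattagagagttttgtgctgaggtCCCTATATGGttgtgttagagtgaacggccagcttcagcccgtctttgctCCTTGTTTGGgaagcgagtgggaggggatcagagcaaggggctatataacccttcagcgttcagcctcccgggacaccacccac
The elements begin 84 and 34 bases before the window's own start. No window of the 6 members that have one held an exact CArG box, which is found in 1.63% of the 32851 windows in the table. At least 2 matches with up to 1 base off were found in 3.7% of all windows, and at least 1 in 21.11%. Kdr, Tek and Eng had 1 such match each, and Cnn1 and Tie1 had 0. The pattern reads the same on both strands, the looser form was chosen after the exact search, and a match is a description of the letters, not of binding.

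In the Acta2 probe set above the filter, the SKM-KO arrays gave 8.30, 8.33 and 8.11, against 7.99, 8.16 and 8.04 in C. The SKM-KO values overlapped those of C through the array SKM-KO 3. The log2 difference was 0.18 (SE 0.09, 95% interval -0.02 to 0.38, unadjusted p 0.070, limma adjusted p 0.9999). In SKM-Tg the values were 7.89, 7.81, 8.34 and 7.79, against 8.54, 8.80 and 8.15 in Wt. SKM-Tg 3 lay above Wt 3, and the other 3 SKM-Tg arrays lay below every Wt array.

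That difference was -0.54 (SE 0.20, 95% interval -1.0 to -0.08, unadjusted p 0.026, limma adjusted p 0.959), which is 1.45-fold lower in SKM-Tg and not past the threshold over all probe sets. It ran from -0.39 without Wt 2 to -0.71 without Wt 3. By mean, the order of the groups was Wt at 8.50 ± 0.33 (SD, n = 3), SKM-KO at 8.25 ± 0.12 (SD, n = 3), C at 8.06 ± 0.09 (SD, n = 3) and SKM-Tg at 7.96 ± 0.26 (SD, n = 4). Each of these groups overlapped with the next in that order. The second Acta2 probe set, below the filter, had means of 4.79 in SKM-KO, 4.66 in C, 4.62 in SKM-Tg and 4.50 in Wt, and its values did not follow those of the first over the 13 arrays (r = -0.21). Actin genes are nearly alike in their coding sequence, so a part of the Acta2 signal may come from other actins, which was not tested. Acta1, the skeletal muscle actin, differed by -0.02 in SKM-KO minus C and by -0.08 in SKM-Tg minus Wt.

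Myh11, the smooth muscle myosin heavy chain, gave 9.34, 9.31 and 9.28 in SKM-KO, against 9.45, 9.31 and 9.42 in C. Its values in SKM-Tg were 9.29, 8.94, 9.32 and 9.19, against 9.23, 8.72 and 9.37 in Wt. The lowest array of all 13 was Wt 2, the array on which Acta2 was highest. The differences were -0.08 (SE 0.07) in SKM-KO minus C and 0.08 (SE 0.18) in SKM-Tg minus Wt, with the sign of the second turned without Wt 2 (-0.12). The second Myh11 probe set differed by 0.04 and -0.06 in the same comparisons, and its values did not follow those of the first (r = -0.08 over 13 arrays).

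Cnn1 encodes calponin, a regulator of actomyosin in smooth muscle, and its probe set was dim. The SKM-KO arrays gave 5.36, 5.52 and 5.23, against 5.39, 5.15 and 5.24 in C, a difference of 0.11 (95% interval -0.12 to 0.34). In SKM-Tg it averaged 5.40 ± 0.12 (SD, n = 4), and in Wt 5.40 ± 0.32 (SD, n = 3), a difference of -0.01 (95% interval -0.39 to 0.37). That second difference was 0.12 without Wt 2 and -0.18 without Wt 3. The groups of each line overlapped. The probe set shared by Tagln, which encodes transgelin, and Pcsk7, a proprotein convertase whose annotated span overlaps that of Tagln by 2480 bases on chromosome 9, gave 8.55, 8.51 and 8.33 in SKM-KO, against 8.48, 8.44 and 8.53 in C. Its means were 8.63 ± 0.27 (SD, n = 4) in SKM-Tg and 8.81 ± 0.32 (SD, n = 3) in Wt, with a difference of -0.18 (SE 0.20).

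**Figure D2:**
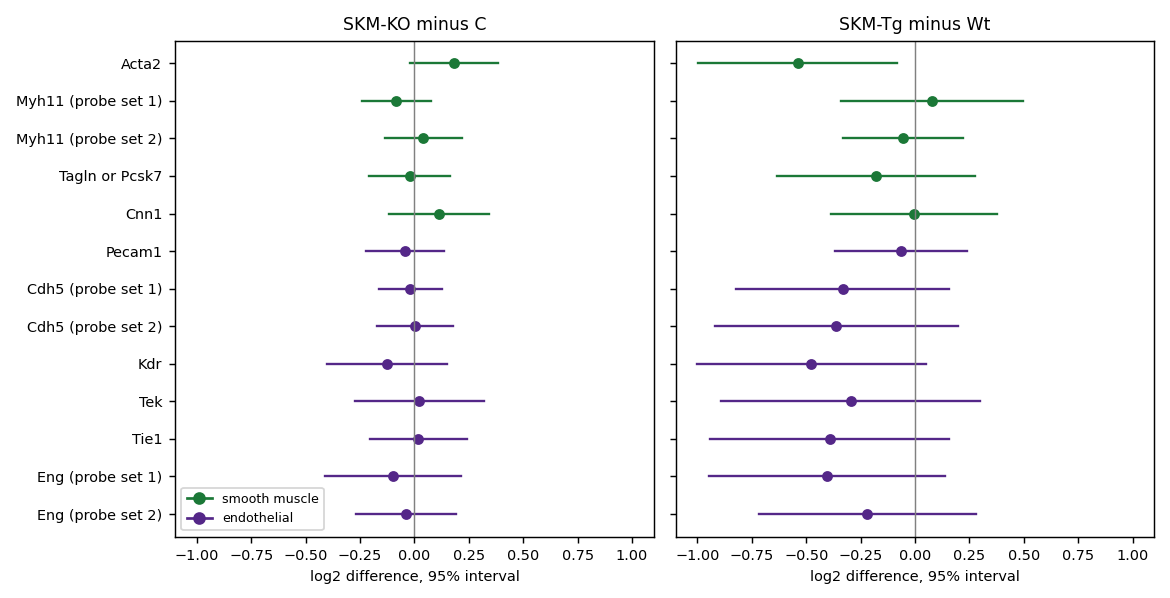
Log2 difference (point) and 95% interval of limma (line) for the 13 probe sets past the filter, including the one shared by Tagln and Pcsk7, in SKM-KO minus C and SKM-Tg minus Wt. Smooth muscle probe sets are green and endothelial ones purple; the intervals are wider in SKM-Tg minus Wt, and the 1 interval that leaves out 0 is that of Acta2 there.

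Among the junction proteins, Cdh5 (VE-cadherin, the adhesion molecule of endothelial contacts) was nearly the same in SKM-KO, at 9.58, 9.63 and 9.66, and in C, at 9.65, 9.62 and 9.66. The difference was -0.02, with a 95% interval of -0.16 to 0.12, the narrowest of the 6 endothelial genes in that comparison. The SKM-Tg arrays gave 9.47, 9.50, 10.17 and 9.83, against 10.12, 10.35 and 9.76 in Wt. SKM-Tg 1 and 2 lay below every Wt array and the other SKM-Tg arrays within the Wt range. By the numbers in the sample titles, SKM-Tg 1 and 2 come before all Wt samples, and the other SKM-Tg samples fall among them. What those numbers stand for is not given, and any bearing on the signals was not tested. The difference was -0.33 (SE 0.21, limma adjusted p 0.959), and -0.36 in the second Cdh5 probe set, which followed the first closely (r = 0.97 over 13 arrays). It ran from -0.20 without Wt 2 to -0.49 without Wt 3.

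Pecam1 (CD31, an adhesion molecule of endothelium and of some blood cells) had the smallest span of the 9 brightest probe sets, 8.97 to 9.38 over the 13 arrays. The SKM-KO arrays gave 8.99, 9.15 and 9.08, against 9.03, 9.20 and 9.12 in C. The SKM-Tg arrays gave 8.97, 9.04, 9.38 and 9.18, against 9.18, 9.24 and 9.20 in Wt. The groups of both lines overlapped. On Wt 2 and Wt 3, where most members were far apart, Pecam1 was 9.24 and 9.20. The differences were -0.04 (95% interval -0.22 to 0.14) and -0.07 (95% interval -0.37 to 0.24).

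Kdr encodes VEGF receptor 2, the main signalling receptor for VEGF-A on endothelium. The SKM-KO arrays gave 9.16, 9.19 and 9.09, against 9.49, 9.29 and 9.03 in C, so that C spanned the SKM-KO values. The SKM-Tg arrays gave 8.54, 8.31, 9.06 and 9.20, against 9.20, 9.11 and 9.45 in Wt. SKM-Tg 1 and 2 were the lowest of the 13 arrays, and SKM-Tg 4 lay within the Wt range. The difference was -0.13 (95% interval -0.40 to 0.15) in SKM-KO minus C and -0.48 (SE 0.23, 95% interval -1.0 to 0.05, unadjusted p 0.070, limma adjusted p 0.959) in SKM-Tg minus Wt, the largest of the endothelial genes. It ran from -0.32 without SKM-Tg 2 to -0.62 without SKM-Tg 4, and was -0.55 without Wt 2 and -0.38 without Wt 3.

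Tek and Tie1 form a small family of receptor tyrosine kinases: Tek (TIE2) binds the angiopoietins, and Tie1 binds none of them directly but pairs with Tek. Both genes lie on chromosome 4, Tie1 at chr4:118471191-118489849 and Tek at chr4:94739086-94874976 (GRCm38.p6). The pair was picked for display after its values were seen to part across the arrays. Endothelial genes are known targets of ETS factors, whose core is GGAA. The Tie1 window is chr4:118489800-118490099 on the minus strand and the Tek window chr4:94739039-94739338 on the plus strand, both from RefSeq, GRCm38.p6, with GGAA or its reverse complement TTCC in capitals.
Tie1: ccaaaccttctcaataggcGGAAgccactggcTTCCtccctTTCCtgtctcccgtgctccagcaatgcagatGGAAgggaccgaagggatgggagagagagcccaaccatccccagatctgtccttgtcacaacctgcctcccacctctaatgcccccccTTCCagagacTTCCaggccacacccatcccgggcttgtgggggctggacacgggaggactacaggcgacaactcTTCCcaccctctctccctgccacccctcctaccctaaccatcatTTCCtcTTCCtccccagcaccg
Tek: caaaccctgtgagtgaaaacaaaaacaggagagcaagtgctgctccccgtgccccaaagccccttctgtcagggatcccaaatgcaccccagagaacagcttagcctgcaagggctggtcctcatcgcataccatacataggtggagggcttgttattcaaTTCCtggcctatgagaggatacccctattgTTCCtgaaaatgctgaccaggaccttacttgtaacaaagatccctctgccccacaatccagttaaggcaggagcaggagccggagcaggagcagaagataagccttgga
The Tie1 window held 9 cores and that of Tek 2. At least 9 were found in 1.6% of all windows and at least 2 in 84.6%, with a median of 3. The other windows held 5 (Kdr), 4 (Eng), 4 (Cnn1) and 3 (Acta2). The Tie1 window has its start at the upstream end of its gene span, and the Tek window has its start inside its span. A match is a description of the letters, not of binding, and any bearing of these cores on the signals was not tested.

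Tie1 was 8.99, 9.17 and 9.19 in SKM-KO, against 8.95, 9.13 and 9.22 in C. In SKM-Tg it was 8.83, 8.82, 9.53 and 9.36, against 9.56, 9.88 and 9.15 in Wt. SKM-Tg 1 and 2 were the lowest of all arrays and Wt 2 the highest. The differences were 0.02 (95% interval -0.20 to 0.24) in SKM-KO minus C and -0.39 (SE 0.24, limma adjusted p 0.959) in SKM-Tg minus Wt. That second difference was -0.22 without Wt 2 and -0.58 without Wt 3.

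Tek was 7.83, 8.17 and 8.18 in SKM-KO, against 7.84, 8.14 and 8.13 in C. In SKM-Tg it was 7.11, 6.88, 7.60 and 7.66, against 7.69, 7.14 and 8.0 in Wt. Wt 2, the highest array for Tie1, was the lowest Wt array for Tek. The differences were 0.02 (95% interval -0.27 to 0.32) in SKM-KO minus C and -0.30 (SE 0.26, limma adjusted p 0.959) in SKM-Tg minus Wt. Leaving out Wt 3 gave -0.10 and leaving out Wt 2 gave -0.53, the reverse of the order for Tie1.

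Eng gave 7.32, 7.51 and 7.53 in SKM-KO, against 7.30, 7.80 and 7.55 in C. In SKM-Tg it gave 7.05, 7.18, 7.73 and 7.38, against 7.67, 8.20 and 7.34 in Wt. SKM-Tg 1 and 2 lay below the Wt range and the other two within it. The differences were -0.10 (SE 0.13) and -0.40 (SE 0.24, limma adjusted p 0.959), the second -0.17 without Wt 2 and -0.60 without Wt 3. The second Eng probe set differed by -0.04 and -0.22, and followed the first over the 13 arrays (r = 0.77).

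The members formed patterns across the SKM-Tg and Wt arrays. After the group means were taken off, Acta2, Cdh5, Tie1 and Eng varied together over these 7 arrays, with r from 0.79 to 0.98 over their 6 pairs. Kdr, Tek and Myh11 also did, with r from 0.52 to 0.89 over 3 pairs. Between the 2 sets r ran from -0.51 to 0.48. Pecam1 and Cnn1 were put in neither set. For Cnn1, r was 0.53 (Acta2), 0.58 (Cdh5), 0.69 (Tie1) and 0.64 (Eng) with the first set. With the second it was -0.02 (Kdr), -0.36 (Tek) and -0.58 (Myh11). Pecam1 varied with genes of both, with r of 0.60 (Acta2), 0.83 (Cdh5), 0.77 (Tie1), 0.71 (Eng), 0.69 (Kdr), 0.50 (Tek) and 0.13 (Myh11). The sets were formed after the values were seen, and the points share arrays and normalization, so the correlations are descriptions. Over the 6 arrays of SKM-KO and C, r ran from -0.68 to 0.72 in the first set. It ran from -0.66 to 0.17 in the second and from -0.94 to 0.95 between them.

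**Figure D3:**
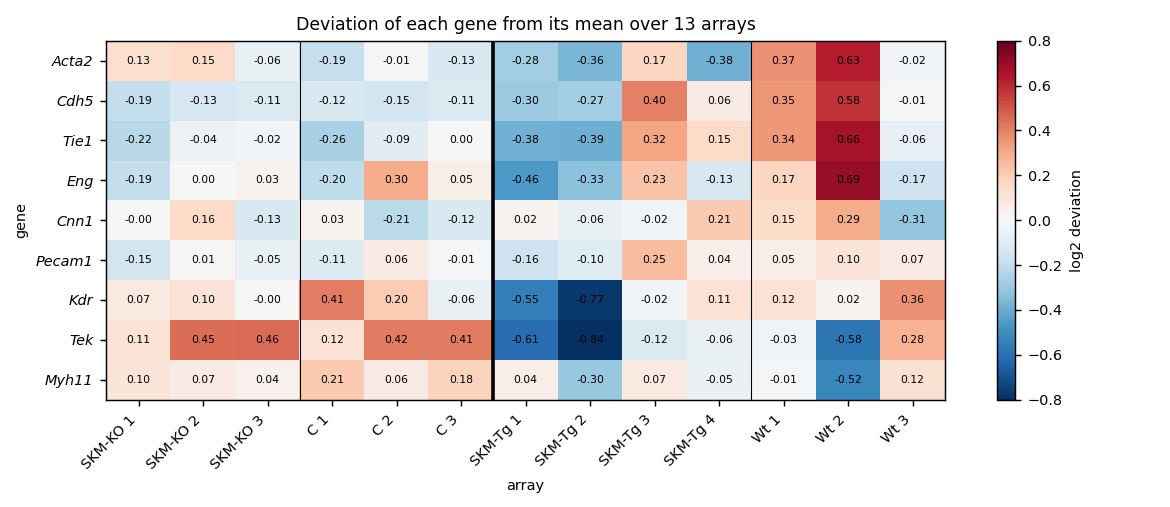
Deviation of the log2 signal of 9 genes (rows) from each gene's mean over the 13 arrays (columns, SKM-KO, C, SKM-Tg and Wt from left to right), with red above and blue below the mean. On Wt 2 the upper rows, Acta2, Cdh5, Tie1 and Eng, are high and the lower rows, Tek and Myh11, are low.

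The opposed values on Wt 2 were part of a pattern over the whole array. Of the 12 probe sets, 7 had the order Wt 2 over Wt 1 over Wt 3, beside 37.4% of all probe sets tested, and 3, those of Kdr, Tek and the brighter one of Myh11, had the reverse order, beside 33.8%. The SD within Wt was 0.33 for Acta2, 0.29 for Cdh5, 0.36 for Tie1, 0.34 for Myh11, 0.32 for Cnn1, 0.43 for Tek and 0.43 for Eng. It was 0.18 for Kdr and 0.03 for Pecam1. The median SD of all probe sets tested was 0.26 in Wt, 0.18 in SKM-Tg, and 0.10 in both SKM-KO and C.

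The effects in both lines were also compared in 1 fit of all arrays. The test of SKM-Tg minus Wt against SKM-KO minus C called 0 of the 12 probe sets (0.00444% of all probe sets tested were called). Its 1 unadjusted p under 0.05 was that of Acta2, at -0.72 (SE 0.24, unadjusted p 0.010, limma adjusted p 0.996), beside 2.71% of all probe sets tested, of which 1.85% were lower. With array quality weights 2 were called, both lower, beside 6.19% of all probe sets tested (4.51% lower). For the endothelial genes this difference had a median of -0.32 and ran from -0.41 for Tie1 to -0.02 for Pecam1. Without Wt 2 it was -0.24 for Tie1, -0.18 for Cdh5, -0.07 for Eng and -0.55 for Tek, and without Wt 3 it was -0.60 for Tie1, -0.47 for Cdh5, -0.50 for Eng and -0.12 for Tek. That of Cnn1 was -0.12, with 0.0071 without Wt 2 and -0.30 without Wt 3.

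The 2 control groups were compared as well. In Wt minus C, both Cdh5 probe sets and the second one of Eng were higher in every Wt array than in any C array, at 0.44, 0.41 and 0.42, so 3 of 12 probe sets had no overlap, against 14% of all probe sets tested that were higher in this way. None passed limma's threshold, with adjusted p from 0.174 to 0.221 for these 3. Tek stood at -0.43 (SE 0.24, adjusted p 0.250), Acta2 at 0.43 (SE 0.17, adjusted p 0.170) and Tie1 at 0.43 (SE 0.21, adjusted p 0.211). Of all probe sets tested, 25.8% had an unadjusted p under 0.05 in Wt minus C and 0.0178% were called. Line and any unrecorded batch cannot be told apart here.

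Other vessel genes, taken from lists by function, gave 0 calls in either comparison. Of 25 further endothelial genes, 8 were positive and 17 negative in SKM-KO minus C (median -0.02), and 10 positive and 15 negative in SKM-Tg minus Wt (median -0.08). The median there was thus nearer 0 than that of the 6 genes above. The smallest p in SKM-Tg minus Wt was that of Cd93, a lectin-like receptor of endothelium, at -0.53 (SE 0.18, limma adjusted p 0.959). Egfl7, an endothelial matrix protein, stood at 0.25 and the sialomucin Emcn at -0.22. Of the pericyte markers, 1 was positive and 7 negative (median -0.19), with Rgs4 at -0.26 and the mural receptor Notch3 at -0.49. Of 8 other smooth muscle genes, 3 were positive and 5 negative (median -0.06), with the myosin light chain Myl9 at -0.23.

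Ligands and partners of these receptors were taken from lists by pathway. In the VEGF list, 2 genes were positive and 4 negative in SKM-KO minus C, and 1 positive and 5 negative in SKM-Tg minus Wt. Vegfa, the main ligand of Kdr, stood at -0.06 in SKM-KO minus C and at -0.39 (SE 0.15, unadjusted p 0.036, limma adjusted p 0.959) in SKM-Tg minus Wt, and the coreceptor Nrp1 at 0.03 and -0.46. In the angiopoietin list, 0 genes were positive and 4 negative in SKM-KO minus C, and 1 positive and 3 negative in SKM-Tg minus Wt. Angpt1, the activating ligand of Tek, stood at -0.36 (SE 0.14, unadjusted p 0.033, limma adjusted p 0.9999) in SKM-KO minus C and at -0.32 (SE 0.22) in SKM-Tg minus Wt.

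In the TGF-beta and BMP list around Eng, 13 genes were positive and 6 negative in SKM-KO minus C, and 7 positive and 12 negative in SKM-Tg minus Wt. Id1 and Id3, which encode inhibitors of helix-loop-helix factors and are targets of BMP signalling, stood at -0.67 (SE 0.20, limma adjusted p 0.959) and -0.45 (SE 0.15, limma adjusted p 0.959) in SKM-Tg minus Wt, against -0.03 and 0.05 in SKM-KO minus C. In the list of serum response factor, its partners and targets, 9 genes were positive and 2 negative in SKM-KO minus C, and 1 positive and 10 negative in SKM-Tg minus Wt (median -0.22). The cytoplasmic actin Actg1 stood at -0.42 (SE 0.12, unadjusted p 0.0090, limma adjusted p 0.959) and the coactivator Mrtfa at -0.73 (SE 0.32) in SKM-Tg minus Wt. In the Notch list the counts were 4 positive and 5 negative in SKM-KO minus C, and 2 positive and 7 negative in SKM-Tg minus Wt. No gene of these pathway lists passed the threshold.

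**Figure D4:**
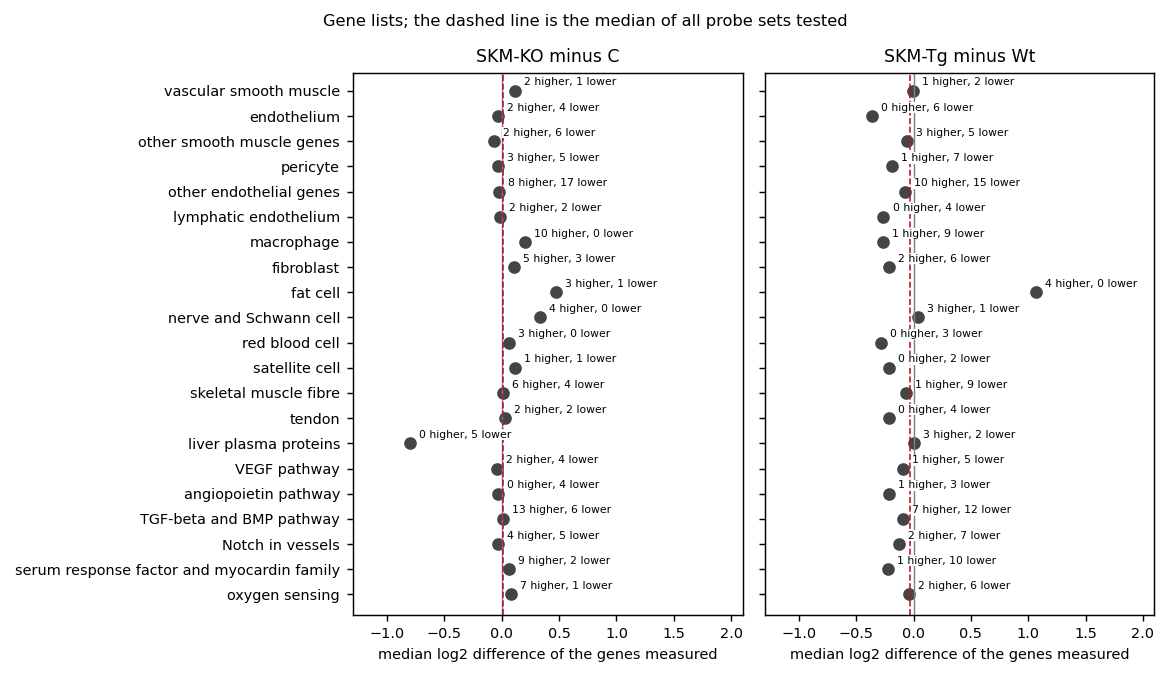
Median log2 difference (horizontal axis) of the genes past the filter in each of 21 gene lists (rows), in SKM-KO minus C and SKM-Tg minus Wt, with the number of genes higher and lower beside each point. The fat cell median lies farthest above 0 in SKM-Tg minus Wt, at 1.06, and the endothelial median is -0.36 there.

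Markers of other cells in the muscle also differed between the arrays of each line. In SKM-Tg minus Wt, 1 of 10 macrophage genes was positive and 9 were negative (median -0.27). Their summed linear signal was 638 to 1121 in SKM-Tg and 854 to 1156 in Wt, and SKM-Tg 1 and 2, the arrays with the lowest Cdh5, Kdr, Tek and Tie1, had the lowest sums. Adgre1, Itgam, Cd14 and Aif1 did not pass the filter. Of 8 fibroblast genes, 2 were positive and 6 negative, with sums of 6352 to 8412 in SKM-Tg and 7222 to 9282 in Wt. Of the 10 fibre genes, 1 was positive and 9 negative (median -0.06). All 4 lymphatic, 4 tendon, 3 red blood cell and 2 satellite cell genes past the filter were negative. Nerve genes were 3 positive and 1 negative, and liver plasma protein genes 3 positive and 2 negative. All 4 fat cell genes were positive, with sums of 4406 to 7468 in SKM-Tg and 3739 to 4738 in Wt, and Adipoq stood at 1.81 (SE 0.82, limma adjusted p 0.959). The part of these cells in the vascular values was not tested.

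In SKM-KO minus C, all 10 macrophage genes were positive (median 0.20), with sums of 979 to 1192 in SKM-KO and 812 to 1052 in C. All 4 nerve genes were positive too, with sums of 679 to 979 in SKM-KO and 599 to 655 in C. On a list for liver rather than muscle, all 5 plasma protein genes were negative (median -0.80), with sums of 149.7 to 190.0 in SKM-KO. In C the sums were 372, 794 and 203, so the top of that range was C 2 alone. Their mean log2 signal was 4.89 to 5.23 in SKM-KO, near the filter. No gene of these lists passed the threshold, and their part in the vascular values was not tested.

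The genes whose values were most like the members' were found by Pearson's r over the 13 arrays among 10402 genes. Closest to the mean of the 6 endothelial genes were Cbfa2t3 (r = 0.98), Flna (0.97), Ppip5k1 (0.97), Dpysl2 (0.96) and Aqp7 (0.94). Closest to the mean of Acta2, Myh11 and Cnn1 were Cd248 (0.83), Gja1 (0.82), Ssu2 (0.81), Rabl3 (0.81) and Abcd4 (0.81). That mean is not a pattern shared by its genes. Over the 13 arrays r was -0.36 for Acta2 and Myh11, -0.51 for Myh11 and Cnn1, and 0.37 for Acta2 and Cnn1. All of these values share the same arrays and normalization, so they describe likeness alone.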

How the data were processed

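Total RNA of quadriceps was amplified and hybridised to 1 Affymetrix array per mouse, per the labels' protocols. The authors deposited log2 signals made with RMA, per the submitters' processing notes, with no version given. The labels gave the groups, and replicates were numbered in accession order, so they pair nothing. Control probe sets (104) were set aside, leaving 45037, and the platform annotation gave 1 symbol to 28898, several to 551 and none to 15588.

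Probe sets with a mean of at least 4.9, the median of all means, were tested (22519) with limma 3.58.1 in R 4.3.3, two-sided, with Benjamini-Hochberg adjustment and a threshold of 0.05. Each line was fitted alone because an earlier fit of all arrays together was recorded to give many false calls for SKM-Tg minus Wt. The spread also differed between lines. The record of false calls was not checked here over all probe sets. Run as an alternative, the joint fit called 0 member probe sets in SKM-Tg minus Wt, with a limma adjusted p of 0.736 for Acta2. The difference of the effects and Wt minus C came from 1 fit of all 13 arrays. That fit shared 1 variance per probe set over all groups, although their spread differed. Each gene was represented by its brightest probe set. From each list up to 3 genes with the smallest p in either comparison could be named. Fibre genes, Acta1 and markers below the filter were named outside that rule. Likeness to smooth muscle used 3 genes, as Tagln had no probe set of its own. Members and lists were chosen with earlier results of these data known. The code was tested on simulated data. Arrays carry no read depth, and their number limits the precision. Promoters are from RefSeq, GRCm38.p6. Alternatives were no filter or a stricter one, median centring, quantile normalization, 1 value per gene, trended and robust moderation, array quality weights, 1 joint fit and leaving out each array. Another, counting the shared probe set as Tagln, was chosen after seeing the data.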

Additional observations from a re-analysis of the deposited data

Results flagged for a closer look

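In the second Eng probe set, SKM-Tg 3 gave 7.34, far from the other 3 SKM-Tg arrays at 6.80, 6.85 and 6.88. The gap to the nearest of them was 0.867 of the whole range of the group, above Dixon's critical value at the 95% level. SKM-Tg was the one group of 4, and 14 probe sets were tested in it. Chance flags about 1 in 20 groups.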

How the results depend on the processing

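No member probe set passed the threshold in SKM-KO minus C, in SKM-Tg minus Wt or in the difference of the effects under any alternative run, with the exception of array quality weights. With those weights, 7 of 12 were called in SKM-Tg minus Wt and 2 in the difference of the effects. Their adjusted p in SKM-Tg minus Wt was 0.0077 for Acta2 and 0.022 to 0.041 for Cdh5, Kdr, Tek, Tie1 and Eng. Almost all the weight of Wt lay on Wt 1, and the estimation of the weights stopped before its tolerance was reached. Some signs turned between the alternatives. Tie1 in SKM-KO minus C was -0.0022 with quantile normalization and -0.013 with array quality weights. Myh11 with those weights was -0.10 in SKM-Tg minus Wt and -0.036 in the difference of the effects, and Pecam1 with quantile normalization was 0.045 in the difference. With single arrays left out, SKM-KO minus C ran from -0.036 to 0.0036 for Cdh5, -0.077 to 0.14 for Tek, -0.055 to 0.082 for Tie1 and -0.22 to 0.026 for Eng. SKM-Tg minus Wt ran from -0.12 to 0.21 for Myh11 and -0.18 to 0.12 for Cnn1. The difference of the effects ran from -0.032 to 0.29 for Myh11, -0.30 to 0.0071 for Cnn1 and -0.10 to 0.033 for Pecam1. Averaging the probe sets of a gene moved Acta2 in SKM-Tg minus Wt to -0.21, by construction, since its dim probe set then counts as much. With the shared probe set taken as Tagln, the smooth muscle median was 0.05 in SKM-KO minus C and -0.09 in SKM-Tg minus Wt. No paired analysis was possible because the labels give no replicate numbers.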

Other observations

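The log2 signal of Tie1 minus that of Tek, taken within each array, was 1.0 to 1.16 in SKM-KO and 0.99 to 1.11 in C, and 1.70 to 1.94 in SKM-Tg and 1.15 to 2.73 in Wt. The SKM-Tg and Wt arrays thus lay above the SKM-KO and C arrays, apart from the lowest Wt array, which was within the SKM-KO range. The probes differ between the genes, so these values are read between arrays and not as a ratio of the receptors. No test was run, and line and any unrecorded batch cannot be told apart.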
